A study of Mus musculus with 15 samples.

Results

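Regions occupied by the histone variant H3.3 were compared with regions of acetylated lysine 27 of histone H3 (H3K27ac) in mouse bone marrow-derived macrophages (BMDMs), both measured by CUT&RUN, in which an antibody tethers a nuclease that releases the DNA it binds. The members were the regions that both replicates of a group shared, that is, regions merged from the replicate lists wherever at least 1 bp of both lists met. There were 27649 such regions for H3.3 and 36327 for H3K27ac, 63976 in all, drawn from 4 lists with 215949 regions out of 479596 in the 10 lists of the series. A shared region was said to have both when it overlapped a shared region of the other group by at least 1 bp, and otherwise was called H3.3-only or H3K27ac-only.

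The H3.3-HA group held 2 libraries, labelled as biological replicates, from BMDMs of knock-in mice whose H3f3b gene carries an HA tag, with an untagged H3f3a, so H3.3 made from H3f3a was not seen by the antibody to HA. The WT H3K27ac group held 2 libraries from BMDMs of mice with floxed alleles of both genes (H3f3a fl/fl H3f3b fl/fl) and no LysM-Cre. All mice had a C57BL/6 background and were 8 to 10 weeks old, of both sexes, and bone marrow cells were grown for 6 to 8 days in medium with L929-conditioned supernatant (day 7 for H3.3-HA in the methods of the study). No stimulus is named for either group. The antibody, the mouse line, the IgG control used for calling and the sequencing depth all differed together between the groups, and their parts in any difference cannot be told apart.

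H3.3 is placed into nucleosomes throughout the cell cycle by dedicated chaperones, HIRA at transcribed genes and enhancers and DAXX with ATRX at silent repeats, whereas the canonical H3 proteins are laid down behind the replication fork. H3K27ac is written by p300 and CBP and marks active promoters and enhancers. In macrophages the enhancers that carry it are opened by PU.1 together with C/EBP, AP-1 and IRF proteins.

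Depth was 6951296 and 5365319 tags for H3.3-HA replicates 1 and 2 and 28366343 and 16444864 for WT H3K27ac, and between 21.5% and 25.9% of the tags fell in regions. To call a peak, at least 8 and 7 tags were needed in the H3.3-HA libraries and 17 and 13 in the WT H3K27ac libraries, so a region absent from a list is a region not called at that depth. H3.3-HA replicate 2 stood apart from replicate 1 at promoters, of which it overlapped 24.9% against 15.2% over the 21911 protein-coding genes, while the WT H3K27ac libraries overlapped 28.4% and 27.5%. Macrophage genes served as a check of the cell type. H3.3 regions lay in the windows of 20 of 20 macrophage identity genes and H3K27ac regions in 19, where a window is the gene body with 5 kb upstream, beside 40.6% and 44.3% of all gene windows. Of 16 genes of neurons and liver they lay in 2 and 1. Neutrophil and B cell genes were not below all genes, with 5 and 5 of 12 and 4 and 4 of 10.

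The following sequences show the ground on which the groups met or parted at macrophage genes. They are 200 bases of the plus strand of mm10 around the midpoints of the 2 widest intersections and of the 2 widest regions of each single class in the windows of macrophage identity and lineage genes. Capitals mark matches, on either strand, to a PU box (GAGGAA), AP-1 (TGANTCA), C/EBP (TTGCNNAA), ETS (CCGGAAG), GC box (GGGCGG) or IRF (GAAA, any 2 bases, GAAA) motif.
Msr1, both, chr8:39625319-39625518: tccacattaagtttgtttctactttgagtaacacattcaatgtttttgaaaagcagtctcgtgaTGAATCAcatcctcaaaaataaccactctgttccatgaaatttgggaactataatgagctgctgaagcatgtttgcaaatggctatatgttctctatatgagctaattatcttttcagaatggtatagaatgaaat
Zeb2, both, chr2:45055134-45055333: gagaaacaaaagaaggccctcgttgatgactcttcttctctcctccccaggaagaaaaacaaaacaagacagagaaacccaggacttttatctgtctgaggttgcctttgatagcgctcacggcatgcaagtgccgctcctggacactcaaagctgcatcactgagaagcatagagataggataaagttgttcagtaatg
Ctss, H3.3-only, chr3:95553198-95553397: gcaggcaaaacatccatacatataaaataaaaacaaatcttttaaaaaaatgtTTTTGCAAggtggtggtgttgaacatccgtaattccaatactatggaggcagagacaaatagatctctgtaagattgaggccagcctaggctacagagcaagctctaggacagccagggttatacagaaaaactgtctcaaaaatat
Fcgr1, H3.3-only, chr3:96285215-96285414: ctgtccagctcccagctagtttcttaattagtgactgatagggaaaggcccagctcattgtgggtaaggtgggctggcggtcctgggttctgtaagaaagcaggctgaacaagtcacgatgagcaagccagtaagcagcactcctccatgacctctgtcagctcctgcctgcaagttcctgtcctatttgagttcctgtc
Bach1, H3K27ac-only, chr16:87723497-87723696: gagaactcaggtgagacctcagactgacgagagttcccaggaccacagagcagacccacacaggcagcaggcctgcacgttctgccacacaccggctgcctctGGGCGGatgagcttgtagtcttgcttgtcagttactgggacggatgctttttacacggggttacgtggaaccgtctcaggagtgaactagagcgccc
Mrc1, H3K27ac-only, chr2:14238044-14238243: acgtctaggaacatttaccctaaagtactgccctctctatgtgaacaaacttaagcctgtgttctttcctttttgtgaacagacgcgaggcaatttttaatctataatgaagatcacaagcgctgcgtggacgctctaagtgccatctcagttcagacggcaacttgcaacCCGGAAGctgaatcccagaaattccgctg
The first 5 lie in introns and the Mrc1 window, in the gene of the mannose receptor, has its midpoint in an exon. The intersection in Msr1, a scavenger receptor gene, was 13029 bp wide and its window held 1 AP-1 match. The H3.3-only region in Ctss, the gene of the lysosomal protease cathepsin S, was 10885 bp wide, and H3.3-HA replicates 1 and 2 covered 9860 and 7156 bp of it against 911 and 0 bp in WT H3K27ac. Its window held 1 C/EBP match. The H3K27ac-only region in Bach1, the gene of a heme-responsive repressor, was 4064 bp wide, of which WT H3K27ac replicates 1 and 2 covered 3745 and 2615 bp and H3.3-HA 0 and 786 bp, and its window held 1 GC box. Over 200-base windows at all 63976 shared regions, 22.4% held a PU box, 8.52% AP-1, 8.87% C/EBP, 1.14% ETS, 3.66% a GC box and 3.47% an IRF motif, so a match in a single window is a description only.

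H3.3 and H3K27ac met at the wider regions of both groups. Of the shared H3.3 regions 16692 had H3K27ac and 10957 did not, and of the shared H3K27ac regions 15602 had H3.3 and 20725 did not. The share with H3.3 was 42.9% (Wilson 95% interval 42.4 to 43.5%, counting error only, since neighbouring regions are not independent). Only 7111 of the H3.3-only and 12721 of the H3K27ac-only regions met neither single library of the other group, and the rest met at least 1. In covered length, 30.6 Mb carried both, 28.3 Mb H3.3 alone and 49.9 Mb H3K27ac alone. Where they met, a median of 91.2% of the H3.3 region lay under H3K27ac and 74.9% of the H3K27ac region under H3.3. Of 17668 overlapping pairs, the H3.3 region lay wholly inside the H3K27ac region in 37.2% and the reverse held in 18.5%, with a median of 563 bp between midpoints.

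H3.3-only regions had a median width of 1354 bp against 1947 bp for H3.3 regions with H3K27ac, and H3K27ac-only regions 1179 bp against 2222 bp with H3.3. The same order held in each library taken alone. H3.3-HA regions with shared H3K27ac had median widths of 1022 and 1102 bp and those without 644 and 687 bp, and WT H3K27ac regions with shared H3.3 had 1641 and 1483 bp against 657 and 638 bp without. The gap within each library was wider than the spread between replicates (mean 1062 bp ± 56.6 against 666 bp ± 30.4 for H3.3-HA and 1562 bp ± 112 against 648 bp ± 13.4 for WT H3K27ac, SD, n = 2). Over all their regions, however, the groups had like widths, with medians of 787 and 823 bp in H3.3-HA and 803 and 777 bp in WT H3K27ac. The groups overlapped, and the difference of 15 bp had an exact two-sided permutation p of 0.667. Its direction turned with the set of regions, to -200.5 bp for regions of at least 1 kb, and to -3.0 bp without H3.3-HA replicate 2.

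The share of regions with the other rose with width in both groups. H3.3 regions under 1 kb had H3K27ac in 41.0% of cases (39.7 to 42.4%) and those of 4 kb or more in 79.5% (77.9 to 81.0%). For H3K27ac regions the shares with H3.3 were 22.7% (21.9 to 23.5%) and 83.5% (82.3 to 84.5%). Regions called in a single replicate met the other group less often than regions called in both. The shares were 33.6% and 28.2% against 58.6% and 59.5% in H3.3-HA replicates 1 and 2, and 13.9% and 13.3% against 42.4% and 42.2% in WT H3K27ac. A wide region has more bases that can meet another, and how much of the rise comes from this was not tested.

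**Figure D1:**
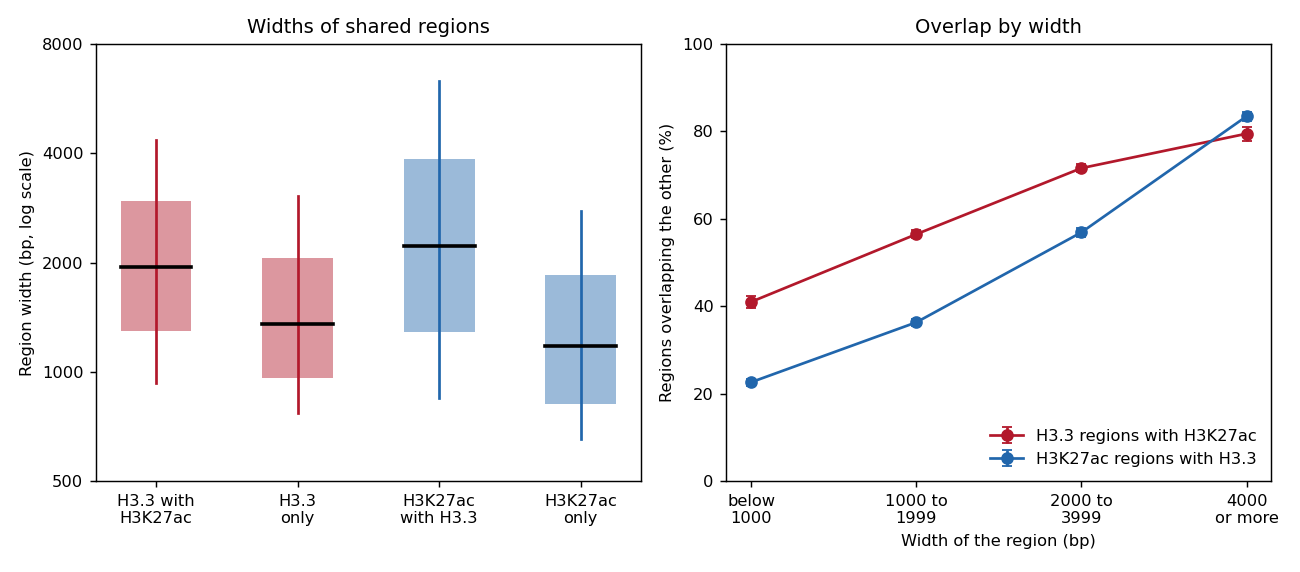
Left, widths in bp on a log scale of shared regions of the 4 classes, with the median as a black line, the interquartile range as a box and the 10th to 90th percentiles as a line. Right, the percentage of regions that overlap the other group by width class, with Wilson 95% intervals. Regions with both are wider in both groups, and the share rises from 41.0% to 79.5% for H3.3 and from 22.7% to 83.5% for H3K27ac.

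The classes parted in where they lay. The midpoint set the position of a region, which was a promoter from 1 kb before to 100 bp after a start, else a gene end (TTS) from 100 bp before to 1 kb after a transcript end, else exon, intron or intergenic. H3.3-only regions were intergenic in 38.3% of cases (37.4 to 39.3%) and intronic in 45.2% (44.2 to 46.1%), whereas H3K27ac-only regions were intergenic in 16.5% (16.0 to 17.1%) and intronic in 71.4% (70.8 to 72.0%). Regions with both lay between, at 26.6% intergenic and 63.3% intronic seen from H3.3 and 26.3% and 63.5% seen from H3K27ac. Gene ends held 6.32% of the H3.3-only regions (693 regions), 2.49% of the H3.3 regions with H3K27ac, and 1.47% of the H3K27ac-only regions (305 regions). Promoters held 5.26% of the H3.3-only and 6.19% of the H3K27ac-only regions. That order was not stable, since the difference of -0.93 points turned to 0.92 without H3.3-HA replicate 1, to 0.12 without WT H3K27ac replicate 1 and to 0.81 without WT H3K27ac replicate 2. In each of these the group that lost a library was the whole list of its other replicate, not filtered for shared regions.

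Over all regions of a library, introns held 57.1% and 55.6% in H3.3-HA replicates 1 and 2 and 70.5% and 69.7% in WT H3K27ac. Both H3.3-HA libraries lay below both WT H3K27ac libraries, with a difference of -13.8 percentage points (exact two-sided permutation p = 0.333, the smallest that 2 against 2 allows, so this design cannot pass the usual threshold). The intergenic share was 30.9% and 29.6% in H3.3-HA and 18.4% and 19.1% in WT H3K27ac, a difference of 11.5 points, again without overlap (exact permutation p = 0.333). The promoter share was 4.17% and 5.96% in H3.3-HA and 4.51% and 4.94% in WT H3K27ac. Here the groups overlapped, the difference was 0.34 points (exact permutation p = 1), and without H3.3-HA replicate 2 it turned to -0.55. A p that misses the threshold does not show that widths or promoter shares were equal.

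The positions also separated the classes at equal width. Among regions under 1 kb, 48.3% of H3.3-only and 69.4% of H3K27ac-only regions were intronic. Among regions of 4 kb or more the intronic shares were 25.5% of 533 H3.3-only and 83.3% of 726 H3K27ac-only regions, and the gene-end shares were 20.5% and 0.96%. Gene-end regions were the widest H3.3-only regions by position, with a median of 1947 bp, against 1303 bp in introns and 1378 bp at promoters. The share of H3.3 regions that also had H3K27ac was 68.1% in introns, 55.1% at promoters, 51.4% between genes and 37.5% at gene ends. Seen from H3K27ac, 56.2% of gene-end and 54.5% of intergenic regions had H3.3, against 40.1% in introns and 33.4% at promoters.

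**Figure D2:**
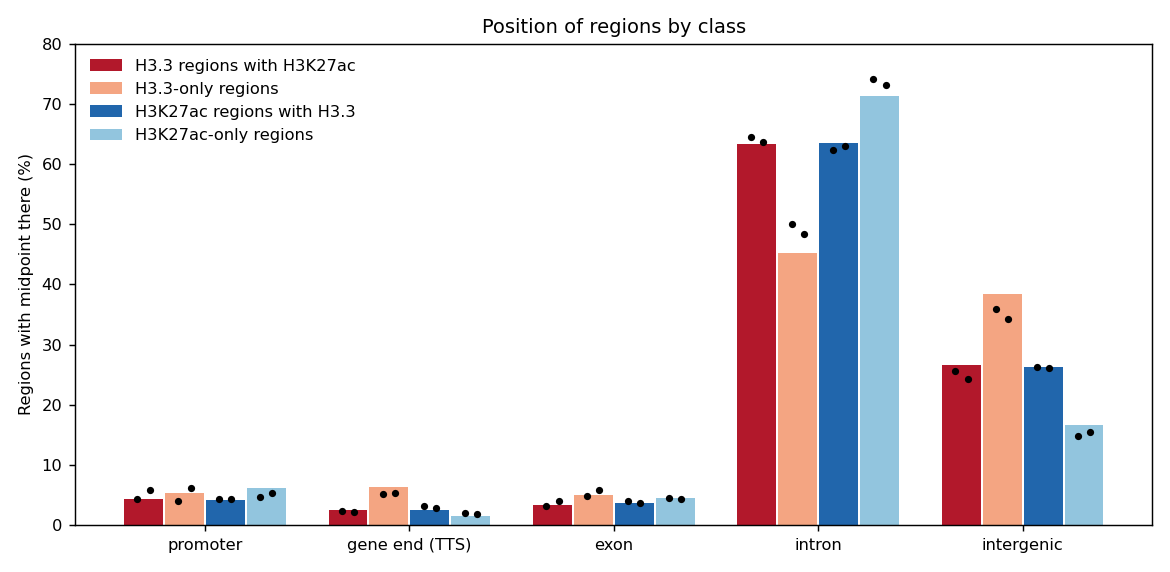
Percentage of shared regions by the position of the midpoint for the 4 classes (bars), with a dot for each of the 2 libraries of the group, computed over all regions of that library with or without a shared region of the other group. H3.3-only regions are the most intergenic (38.3%) and H3K27ac-only regions the most intronic (71.4%), with the same order in the single libraries.

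Intergenic H3.3-only regions lay nearer to genes than intergenic H3K27ac-only regions. Their median distance to the nearest start site was 15914 bp against 40925 bp, and 22.2% against 44.4% lay over 50 kb away. Intergenic regions with both lay between, at 23577 bp seen from H3.3. The gap to the nearest shared region of the other group was also measured for the single classes. For H3.3-only regions the nearest shared H3K27ac region was at most 5 kb away in 39.5%, with a median gap of 7550 bp, and 9.38% had none within 50 kb. For H3K27ac-only regions the nearest shared H3.3 region was at most 5 kb away in 31.2%, with a median gap of 11313 bp, and for 20.1% it was over 50 kb away. Shared H3K27ac regions were more numerous than shared H3.3 regions (36327 against 27649), which alone can shorten a gap. No background share was computed, so these gaps do not show that a class was near or far. On the X chromosome H3.3 regions were few, 35.1 for each 100 H3K27ac regions, while the 19 autosomes had between 60.2 and 98.4. There, 20.5% of H3K27ac regions had H3.3, against 35.4 to 50.8% on the autosomes. The sex of the mice behind a library is not given in the sources used here, and the number of X chromosomes per library was not tested.

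Just after the gene start coverage by H3K27ac was higher, and just after the gene end coverage by H3.3 was higher. At 750 bp after the start of a gene, where H3K27ac was most frequent, its regions covered 22.4% and 20.7% of the 21911 genes in WT H3K27ac replicates 1 and 2. The H3.3-HA libraries did not share a shape there. Replicate 1 was highest 1000 bp before the start, at 7.56% of genes, and covered 4.70% at the start itself, and replicate 2 was highest at 500 bp after the start, at 13.2%, with 10.1% at the start. Downstream of the gene end both H3.3-HA libraries rose, to 8.87% of genes at 1250 bp in replicate 1 and 12.1% at 1000 bp in replicate 2. Those values lay above 4.35% and 6.49% at 5000 bp before the end and above 4.86% and 7.49% at 5000 bp after it. The WT H3K27ac libraries were flat there, at 5.97% and 4.80% of genes 1000 bp after the end.

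**Figure D3:**
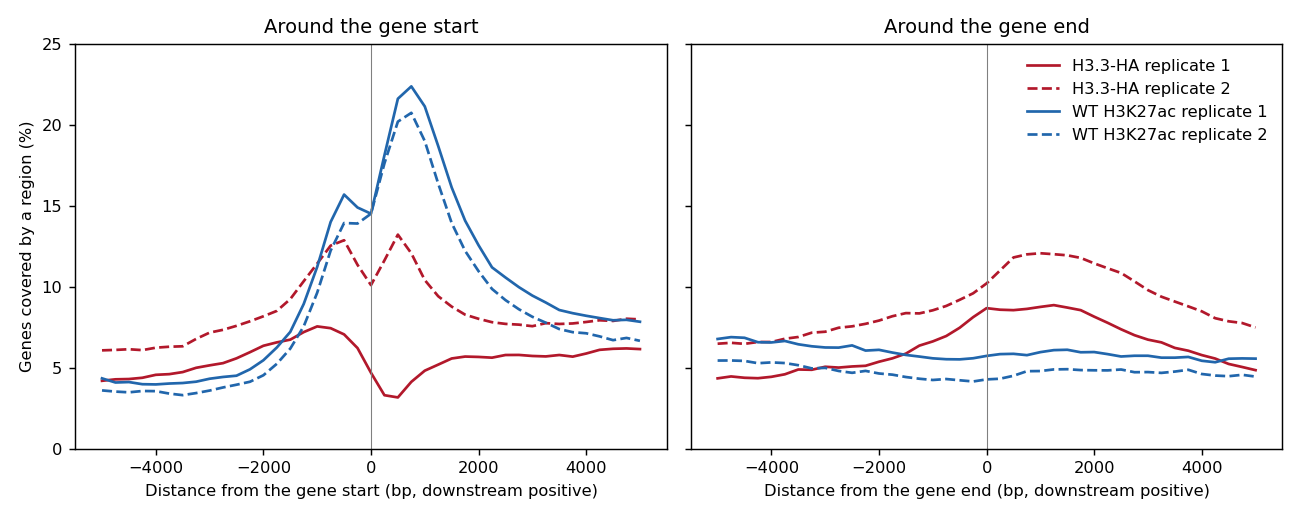
Percentage of the 21911 protein-coding genes covered by a region at each distance (bp, downstream positive) from the gene start (left) and the gene end (right), a line for each of the 4 libraries. WT H3K27ac is highest after the start (22.4% and 20.7%), and both H3.3-HA libraries rise after the gene end (8.87% and 12.1%), while they differ from each other at the start.

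Counted by gene, H3.3 and H3K27ac mostly fell in the same genes. Of the 21911 gene windows 40.6% held a shared H3.3 region and 44.3% a shared H3K27ac region. Both were in 7061 windows (32.2%), H3.3 only in 1832 (8.36%), H3K27ac only in 2635 (12.0%) and neither in 10383. In 5894 of the windows with both (83.5%) the regions overlapped, and in 1167 they lay apart. Gene length went with the class, at a median of 31981 bp for genes with both, 22625 bp for H3K27ac only, 12431 bp for H3.3 only and 10309 bp for neither. These counts moved when a library was left out and its group became the whole list of its other replicate, not filtered for shared regions. Without WT H3K27ac replicate 2 there were 1185 genes with H3.3 only, and without H3.3-HA replicate 1 there were 2994. Without H3.3-HA replicate 1 or 2 there were 1476 or 1427 with H3K27ac only.

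At promoters H3K27ac was the more frequent, and at gene ends H3.3. A shared H3.3 region overlapped the promoter of 14.3% of genes and a shared H3K27ac region that of 25.3%, with both at 8.22%. The gene end (100 bp before to 1 kb after it) was overlapped by H3.3 in 13.8% and by H3K27ac in 7.53% of genes. Library by library, 15.3% and 18.1% of gene ends met H3.3-HA and 10.9% and 8.48% WT H3K27ac, without overlap between the groups, but at promoters H3.3-HA replicate 2 alone gave 5463 genes in place of the shared 3132. Genes with both at the promoter had H3.3 at the end in 35.3% of cases, genes with H3K27ac only in 23.8%, and genes with neither in 7.50%.

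Macrophage genes carried both. Among the 20 macrophage identity genes, the promoter was overlapped by H3.3 in 18 and by H3K27ac in 16, and the gene end in 16 and 10. Over all genes the shares with H3.3 and H3K27ac were 14.3% and 25.3% at promoters and 13.8% and 7.53% at ends. Lyz2, which encodes lysozyme M, had 66.9% and 84.8% of its window in H3.3-HA replicates 1 and 2 and 94.2% and 88.4% in WT H3K27ac. Adgre1, which encodes the F4/80 antigen, leaned to H3.3, with 19723 and 30342 bp in H3.3-HA against 13481 and 6560 bp in WT H3K27ac. The groups did not overlap there, and the study had displayed this gene for H3.3 on these data, so it was not an independent choice. Of the 20 lineage transcription factors 17 had both in the window, beside 32.2% of all genes, and H3.3 and H3K27ac were at 10 and 11 promoters. Spi1, the gene of PU.1, was covered over 12159 and 26028 bp by H3.3-HA and over 24946 and 22233 bp by WT H3K27ac, so the replicate spread of H3.3-HA spanned the H3K27ac values. Cebpb and Cebpa, whose products drive myeloid gene expression, had H3.3 and no shared H3K27ac at the promoter. In the Cebpa window the groups overlapped, with 501 and 2638 bp in H3.3-HA and 767 and 628 bp in WT H3K27ac. In the Cebpb window H3.3-HA covered 1895 and 3427 bp and WT H3K27ac 405 and 501 bp. Klf6, a zinc finger factor gene, had the opposite pattern, with 501 and 702 bp in H3.3-HA and 10680 and 10004 bp in WT H3K27ac.

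Genes of other cells differed by list. H3.3 and H3K27ac were in the windows of 3 and 1 of 12 T and NK cell genes, and 9 of the 12 had neither, beside 47.4% of all genes. Of 10 B cell genes 40.0% had H3.3 and 40.0% H3K27ac, and of 12 neutrophil genes 41.7% and 41.7%, near the 40.6% and 44.3% of all genes. Ms4a1 and Blnk of the B cell list, Cd28 of the T and NK cell list and Mmp8 and Prtn3 of the neutrophil list had both at the promoter. At the Prtn3 promoter, however, the H3K27ac came from WT H3K27ac replicate 1 and not from replicate 2. Blnk, the gene of a B cell receptor adaptor, had 14773 and 11214 bp of H3.3-HA and 10462 and 4892 bp of WT H3K27ac. Lck, the T cell kinase, had 1742 and 4112 bp of H3.3-HA and 0 and 161 bp of WT H3K27ac, and Cd4 1436 and 2639 bp against none, so both were H3.3-only genes. Apoa1, an apolipoprotein gene of liver, had 627 and 748 bp of H3.3-HA and none of WT H3K27ac. Cd3e, Cd8a, Pax5, Ebf1 and Alb were bare in all 4 libraries.

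Inflammatory response genes had more H3.3 than H3K27ac at the promoter. Of 20 such genes, 12 promoters were overlapped by H3.3 and 5 by H3K27ac, beside 14.3% and 25.3% of all genes. The single libraries gave 12 and 14 promoters for H3.3-HA and 5 and 6 for WT H3K27ac, so the groups did not overlap. In 6 of the 20 windows H3.3 stood without H3K27ac, beside 8.36% of all genes. Il1a, which encodes the cytokine interleukin 1 alpha, had 2222 and 1839 bp in H3.3-HA and none in WT H3K27ac. Il6 had 1842 and 501 bp against none. Socs3, which encodes an inhibitor of cytokine signalling, had 992 and 4029 bp against none. Both H3.3-HA libraries lay above both WT H3K27ac libraries in each of these, although the H3.3-HA replicates differed up to several-fold. These genes were among the 6 and do not stand for the list. In Ccl3, also of the 6, the groups overlapped, with 2114 and 1017 bp against 0 and 2950 bp. Only 1 window, that of Ccl5, had H3K27ac without H3.3, beside 12.0% of all genes. Tnfaip3 had both, with 4828 and 5686 bp of H3.3-HA and 11047 and 11317 bp of WT H3K27ac. Ptgs2, the gene of cyclooxygenase 2, was bare in all 4 libraries.

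Interferon-stimulated genes showed the reverse at the promoter, which is also the order over all genes. Of 26 genes, 19 promoters had H3K27ac (73.1%) and 6 had H3.3 (23.1%), beside 25.3% and 14.3% of all genes. Here the H3.3-HA libraries did not agree, with 7 promoters in replicate 1 and 15 in replicate 2, against 20 and 21 in WT H3K27ac. At the gene ends the order turned, with H3.3 at 13 and H3K27ac at 0 of 26, and with 11 and 20 in the H3.3-HA libraries and 0 and 0 in WT H3K27ac. Over all genes H3.3 was also the more frequent at ends (13.8% against 7.53%). Ifit3, of the antiviral IFIT family, had H3K27ac at its promoter and H3.3 at its end, with 543 and 2179 bp of H3.3-HA and 843 and 761 bp of WT H3K27ac in the window. Isg15, a ubiquitin-like modifier, had 0 and 501 bp of H3.3-HA and 1296 and 637 bp of WT H3K27ac. Oasl1 went against the list, with 4170 and 5504 bp of H3.3-HA and 0 and 501 bp of WT H3K27ac.

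Promoters of the inflammatory, interferon-stimulated and macrophage identity lists are shown as 250 bases before the start, read along the strand of the gene from RefSeq (GRCm38.p6), with the same motifs in capitals. They are the first 2 genes of each list whose 250 bases were overlapped by both H3.3-HA libraries alone, by both WT H3K27ac libraries alone, or by all 4, a choice made after the values were seen.
Il6, H3.3-HA alone, chr5:30012864-30013113, plus strand: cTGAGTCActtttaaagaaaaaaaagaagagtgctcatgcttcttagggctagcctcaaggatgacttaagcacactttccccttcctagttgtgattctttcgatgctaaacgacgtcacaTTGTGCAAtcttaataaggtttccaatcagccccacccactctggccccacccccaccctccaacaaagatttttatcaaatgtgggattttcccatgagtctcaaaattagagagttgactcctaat
Socs3, H3.3-HA alone, chr11:117969367-117969616, minus strand: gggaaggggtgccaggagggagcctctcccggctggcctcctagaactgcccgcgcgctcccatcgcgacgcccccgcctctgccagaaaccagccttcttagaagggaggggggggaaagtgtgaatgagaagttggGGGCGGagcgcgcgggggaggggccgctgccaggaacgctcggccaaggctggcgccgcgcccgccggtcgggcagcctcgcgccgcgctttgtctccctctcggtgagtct
Ifit1, WT H3K27ac alone, chr19:34640639-34640888, plus strand: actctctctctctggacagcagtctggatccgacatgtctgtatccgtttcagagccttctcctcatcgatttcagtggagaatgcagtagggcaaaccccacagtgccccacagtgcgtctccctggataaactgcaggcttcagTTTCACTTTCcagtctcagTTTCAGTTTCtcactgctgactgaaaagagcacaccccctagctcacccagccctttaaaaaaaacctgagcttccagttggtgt
Ifit3, WT H3K27ac alone, chr19:34583279-34583528, plus strand: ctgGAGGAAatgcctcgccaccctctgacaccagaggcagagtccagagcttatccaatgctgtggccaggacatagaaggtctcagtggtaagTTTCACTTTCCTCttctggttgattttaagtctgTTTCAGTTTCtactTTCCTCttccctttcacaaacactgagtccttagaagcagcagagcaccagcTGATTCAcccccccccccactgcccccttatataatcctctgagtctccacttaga
Itgam, all 4, chr7:128062390-128062639, plus strand: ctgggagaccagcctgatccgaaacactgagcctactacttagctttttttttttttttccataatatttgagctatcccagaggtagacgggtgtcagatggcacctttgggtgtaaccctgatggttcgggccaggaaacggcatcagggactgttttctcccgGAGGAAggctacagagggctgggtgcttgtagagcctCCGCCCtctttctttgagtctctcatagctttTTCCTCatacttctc
Fcgr1, all 4, chr3:96293970-96294219, minus strand: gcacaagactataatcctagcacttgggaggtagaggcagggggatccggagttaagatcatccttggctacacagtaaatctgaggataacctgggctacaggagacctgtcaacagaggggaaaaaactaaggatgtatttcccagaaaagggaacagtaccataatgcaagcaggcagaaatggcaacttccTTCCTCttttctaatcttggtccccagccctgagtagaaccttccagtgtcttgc
Il6 held 1 AP-1 and 1 C/EBP match and Socs3 1 GC box. Ifit1 and Ifit3 held 2 IRF matches each. Ifit3 also held 3 PU boxes and 1 AP-1 match, and an IRF match and a PU box share bases there. Itgam, which encodes CD11b, held 2 PU boxes and 1 GC box, and Fcgr1, an IgG receptor gene, 1 PU box. Among 32851 RefSeq promoters of this length 2.98% held an IRF motif, 23.3% a PU box, 6.75% AP-1, 9.56% C/EBP, 6.91% ETS and 32.7% a GC box.

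In cell cycle, ribosomal protein and lysosome genes H3K27ac was at more promoters than H3.3, and H3.3 at more gene ends than H3K27ac. That order is also the order over all genes (promoters 14.3% with H3.3 and 25.3% with H3K27ac, ends 13.8% and 7.53%), so it is not particular to these lists. Of 25 cell cycle genes 10 ends had H3.3 and 2 had H3K27ac, and 13 promoters had H3K27ac and 2 had H3.3, with 3 and 9 in the single H3.3-HA libraries and 13 and 14 in WT H3K27ac. Cdk1, the kinase that drives entry into mitosis, had 1272 and 1825 bp of H3.3-HA and 11370 and 8727 bp of WT H3K27ac. Rrm1, a subunit of ribonucleotide reductase, had 1140 and 0 bp against 6287 and 5287 bp. Of 20 ribosomal protein genes the end was overlapped by H3.3 in 19 and by H3K27ac in 8, with 18 and 20 in the H3.3-HA libraries and 7 and 7 in WT H3K27ac, while promoters had H3.3 in 3 and H3K27ac in 9. Rps3 had H3.3 alone, over 2122 and 2510 bp. Of 20 lysosome genes all 20 windows held both, beside 32.2% of all genes, 17 ends had H3.3 and 5 had H3K27ac, and 7 and 16 promoters did. Ctsd, the gene of cathepsin D, was covered over 71.3% and 91.4% of its window by H3.3-HA and over 80.3% and 66.7% by WT H3K27ac. Some of these genes are short or lie close to a neighbour, so a region at an end can also lie at another gene, which was not tested.

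Lipid and sterol genes had the order of all genes too, with 6 promoters with H3.3 and 12 with H3K27ac of 18, and 11 and 5 ends. Their H3.3 promoters were 6 and 12 in the single libraries, so the gap at promoters rested on H3.3-HA replicate 1. Of 10 genes of H3.3 and its chaperones 5 ends had H3.3 and 1 had H3K27ac, beside 13.8% and 7.53% of all genes. The gap between the groups rested on WT H3K27ac replicate 2, since the single libraries gave 5 and 5 ends for H3.3-HA and 4 and 1 for WT H3K27ac. H3f3a leaned to H3.3 (5138 and 4679 bp against 2153 and 2163 bp) and H3f3b to H3K27ac (2591 and 3578 bp against 6446 and 5784 bp). Hira had 501 and 3046 bp of H3.3-HA and 24944 and 12937 bp of WT H3K27ac. Of 16 genes that write, erase or read H3K27 acetylation 4 promoters had H3.3 and 9 had H3K27ac, and 9 and 4 ends did. At these promoters the single libraries overlapped, with 2 and 7 for H3.3-HA and 7 and 8 for WT H3K27ac. The order in this list is again that of all genes (promoters 14.3% and 25.3%, ends 13.8% and 7.53%). Of 8 genes that the study displayed for H3.3, chosen on these data and so no independent evidence, 3 promoters had H3.3 and 3 had H3K27ac, beside 14.3% and 25.3% of all genes.

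**Figure D4:**
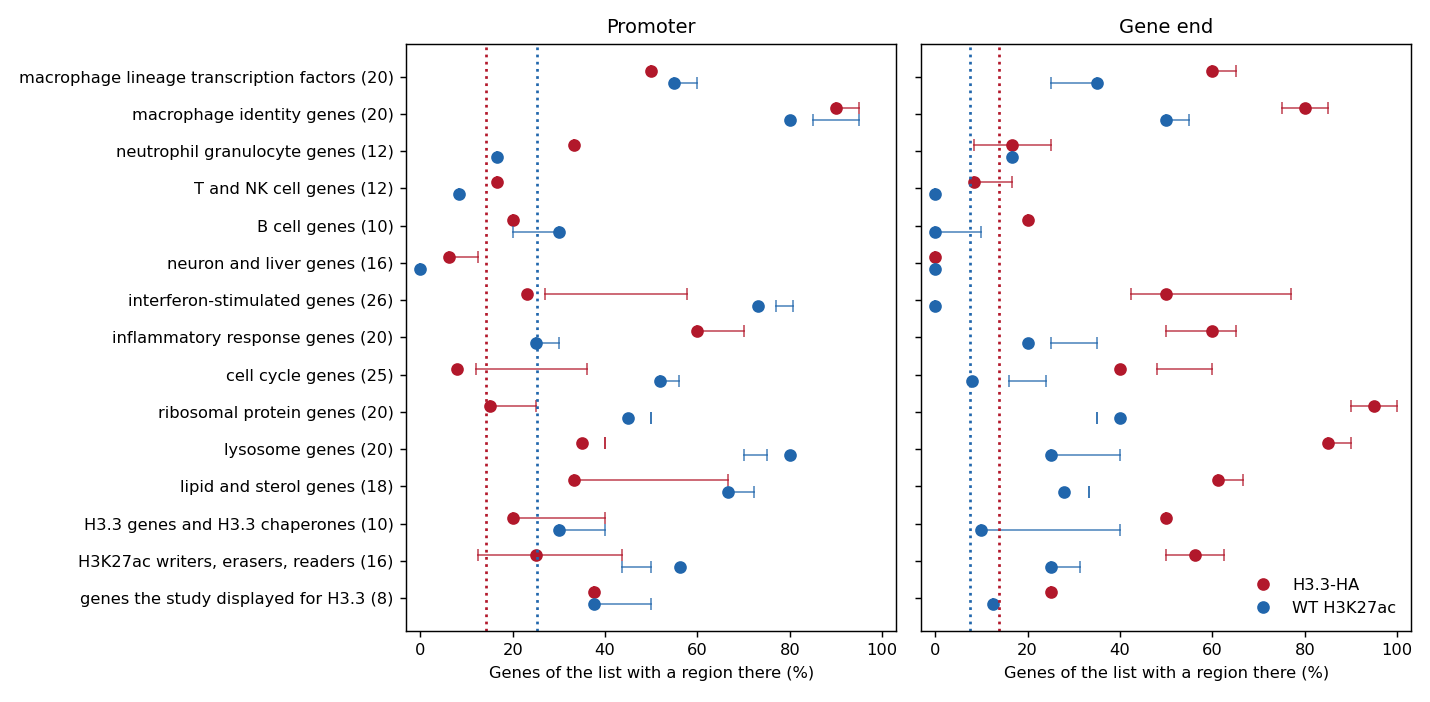
Percentage of the genes of each list (number of genes in parentheses) with a shared region at the promoter (left) and at the gene end (right). Points are shared regions, lines span the 2 single libraries and dotted lines give the share over all 21911 genes. Inflammatory promoters have more H3.3 (12 against 5 of 20), interferon-stimulated promoters more H3K27ac (19 against 6 of 26), and ribosomal protein gene ends more H3.3 (19 against 8 of 20). The orders of the interferon-stimulated and ribosomal protein lists are also those of all genes.

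The genes with the most bases of each kind were long. Pid1, at chr1:84036296-84364180, held 94713 bp of both, with 122852 and 127068 bp in the H3.3-HA libraries and 137958 and 134684 bp in WT H3K27ac, and it also led the genes by H3.3 alone (42856 bp). Mbnl1, a splicing regulator gene, followed with 84207 bp of both. By H3K27ac alone the leading gene was Elmo1, which acts in the engulfment of dying cells, with 106343 bp, then Snx29 with 99049 bp and Foxp1 with 88470 bp. Runx1, which encodes a factor of blood cell development, held 34080 bp of H3.3 alone, beside 34512 bp of H3K27ac alone. Atp5o and Itsn1, with 37619 and 37591 bp of H3.3 alone, have overlapping gene models and share these bases.

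The widest single regions showed the extremes. The widest intersection, of 18969 bp, lay in Lpl, the gene of lipoprotein lipase (chr8:68894754-68913722), and each of the 4 libraries covered between 16497 and 18037 bp of it. The widest H3.3-only region, of 13216 bp, lay in Cyth4 (chr15:78611923-78625138), with 3786 and 13148 bp in H3.3-HA and none in WT H3K27ac. The third widest lay in Lcp1, the gene of the actin bundler L-plastin, with 10177 and 11939 bp against 0 and 1002 bp. The widest H3K27ac-only region, of 20861 bp, lay in Eea1, an early endosome gene (chr10:96018206-96039066), with 18907 and 16262 bp in WT H3K27ac. The single H3.3-HA libraries still covered 4125 and 1480 bp there, outside any region called in both replicates. In Cep128 the H3K27ac-only region of 14969 bp had none in either H3.3-HA library.

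Libraries that the classes did not use gave further readouts, as a description. In H3.3 conditional knockout (cKO) BMDMs, which carry LysM-Cre and the floxed alleles, the H3K27ac libraries overlapped 65.9% and 73.1% of H3.3 regions with H3K27ac, but 21.05% and 29.5% of H3.3-only regions. They overlapped 40.1% and 47.5% of H3K27ac-only regions, and 73.2% and 85.8% of those at promoters. Shared WT H3K27ac regions set the classes, so the order of the classes under cKO H3K27ac is not independent of the rule. H3.3-only regions were also narrower than H3.3 regions with H3K27ac (medians 1354 and 1947 bp), and the part of width in these shares was not tested. WT H3K36me3, a mark of transcribed gene bodies, overlapped 28.0% and 29.3% of H3.3-only regions and 41.5% and 42.7% of H3K27ac-only regions. At gene ends WT H3K36me3 was frequent in every class, at 70.0% and 74.0% of H3.3-only regions, 67.8% and 74.0% of H3.3 regions with H3K27ac and 61.3% and 62.0% of H3K27ac-only regions. H3.3-only regions at gene ends met cKO H3K27ac in 13.9% and 19.05%. Intergenic H3.3-only regions met WT H3K36me3 in 11.2% and 11.9%.

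**Figure D5:**
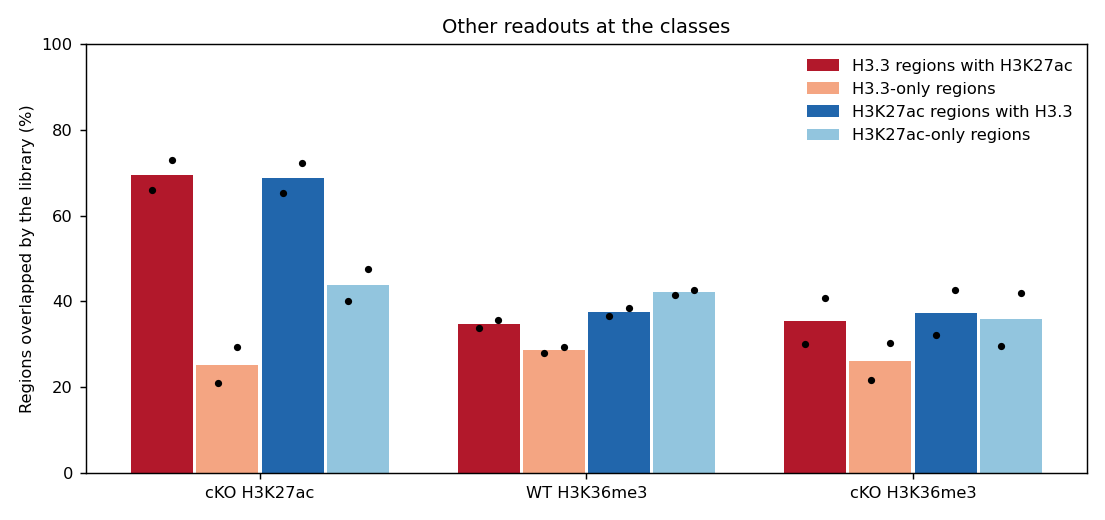
Percentage of shared regions of the 4 classes overlapped by libraries that the classes did not use, as the mean of the 2 libraries (bars) and each library (dots). H3.3-only regions have the lowest share with cKO H3K27ac (21.05% and 29.5%), and regions with both the highest (65.9% and 73.1% seen from H3.3). Shared WT H3K27ac regions set the classes, so this order is not independent of the rule.

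By sequence, H3K27ac-only regions held fewer PU boxes than the other classes in each library. In 300-base windows at the midpoints, a PU box was held by 32.4% ± 2.62 of H3.3-HA regions with and 31.8% ± 3.19 without H3K27ac, and by 32.6% ± 0.119 of WT H3K27ac regions with and 26.7% ± 0.0799 without H3.3 (SD, n = 2 libraries). On a grid of 26477 windows across the genome the share was 25.6%. The share of windows with a CpG ratio (observed over expected) above 0.6 overlapped between the groups, at 1.88% and 4.68% of H3.3-HA regions without H3K27ac and 4.11% and 5.07% of WT H3K27ac regions without H3.3. The H3.3-HA replicates differed in base composition, with a median GC content without H3K27ac of 43.3% and 46.7%, so a difference in GC between the H3.3 classes was not larger than the replicate spread.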

How the data were processed

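CUT&RUN region lists of 4 libraries were used, 2 of H3.3-HA and 2 of WT H3K27ac, with 6 lists of other groups as further readouts, and the 5 IgG controls entered only through the peak calling. Per the labels and methods, the authors trimmed reads with cutadapt, aligned them with Bowtie2 (local mode, mm10) and called regions in each library apart with HOMER in histone mode. Per the file headers, peaks of 500 bp at least 1000 bp apart needed a 4-fold excess over IgG, at a Poisson threshold of 1e-04, and the same threshold over the local 10000 bp. The deposited values used are region starts and ends in bp. The lists carry no height, so presence and length were compared, not signal, and the IgG control differed between the groups.

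Groups came from the labels. Replicate lists were merged and regions met by both replicates kept. Genes were the 21911 protein-coding genes of GENCODE M21. Python 3.11.15 with numpy 2.4.6, scipy 1.17.1 and matplotlib 3.10.9 was used, and the interval code was tested on simulated data. Library values were compared by two-sided exact permutation tests, and Wilson 95% intervals cover counting error only. Members and gene lists were chosen with earlier results of these data known. Named genes were members of 15 lists (248 symbols, of which 1, Mx2, had no coding gene here), the 5 genes with the most bases of each kind, leaving out gene models that overlap more than 5 others, and the 3 widest regions of each class. Counts at promoters and gene ends were added after the data were seen. Alternatives were a minimum width, equal list lengths, stricter overlaps, stricter absence, other annotation and promoter windows, a replicate block and leaving out each library. With a library left out, its group was the whole list of its other replicate, not filtered for shared regions.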

Additional observations from a re-analysis of the deposited data

Results flagged for a closer look

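Shares at gene ends, in introns and between genes were compared for regions without the other, less those with the other. At these positions the difference had opposite directions in the 2 groups in every library. Exon and promoter shares did not part in this way, and exon shares rose in all 4 libraries. The difference between the groups was not tested. At gene ends the difference was 2.90 and 3.19 percentage points in H3.3-HA replicates 1 and 2 and -1.16 and -1.02 in WT H3K27ac. In introns it was -14.5 and -15.5 points in H3.3-HA and 11.8 and 10.1 in WT H3K27ac. Between genes it was 10.2 and 10.0 points in H3.3-HA and -11.5 and -10.7 in WT H3K27ac.

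In libraries outside the comparison, 1807 of the 10957 H3.3-only regions (16.5%, 15.8 to 17.2%) were overlapped by both cKO H3K27ac libraries, and no shared WT H3K27ac region met them. Single WT H3K27ac libraries did meet some of the 1807. Of the 7111 H3.3-only regions without a region in either WT H3K27ac library, 685 (9.63%) were among the 1807. The rest of the 1807 met at least 1.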

How the results depend on the processing

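Introns stayed fewer and intergenic positions more frequent in H3.3-only than in H3K27ac-only regions under all alternatives run, and regions with both stayed wider. With regions of at least 1 kb there were 11095 shared H3.3 and 17069 shared H3K27ac regions, 37.0% of the latter with H3.3, class differences of -22.3 (intron) and 16.1 points (intergenic), width differences of -448 and -1157.5 bp, 3888 genes with both, 1411 promoters and 1842 ends with H3.3 and 961 ends with H3K27ac, and the library differences turned to -200.5 bp in width and -0.81 points at promoters. With equal list lengths the shares with the other were 58.0% and 46.1% and the library width difference -138.5 bp. With 0.5 of each replicate region covered there were 16864 H3.3 regions, shares of 57.0% and 30.7%, differences of -19.9 and 17.7 points and of -762 and -1279 bp, and 1694 promoters and 1759 ends with H3.3. With 0.5 of the region covered by the other, the shares were 50.7% and 32.7%, the intergenic difference 20.1 points and the widths -367 and -608 bp. With absence required in both libraries of the other group the values were -34.2 and 29.7 points and -685 and -1181.5 bp. With all annotated genes they were -23.4 and 18.5 points, 3145 genes with H3.3 only and 4649 with H3K27ac only, 5038 promoters with H3.3, and 4702 and 3419 ends. A promoter of 2 kb on both sides gave -5.78 (promoter), -19.2 and 19.7 points and a library promoter difference of -0.062. By promoter alone 1800 genes had both. The cause of these moves was not tested.

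Leaving out 1 library at a time gave 27649 to 50456 H3.3 and 36327 to 61764 H3K27ac regions. The counts of 50456 and 61764 were the whole lists of H3.3-HA replicate 1 and WT H3K27ac replicate 1. The group that lost a library was not filtered for shared regions, so an unfiltered group was set against a filtered one. Shares with the other were 46.9 to 69.1% and 31.2 to 55.6%. Class differences were -3.28 to 0.92 (promoter), -31.4 to -22.8 (intron) and 18.1 to 25.8 points (intergenic). Width differences were -612 to -378 and -987.5 to -844.5 bp. The promoter difference turned to 0.92 without H3.3-HA replicate 1, to 0.12 without WT H3K27ac replicate 1 and to 0.81 without WT H3K27ac replicate 2. Genes with both numbered 7481 to 8269, with H3.3 only 1185 to 2994 and with H3K27ac only 1427 to 3447, promoters with H3.3 3132 to 5463, ends with H3.3 3023 to 3965 and with H3K27ac 1650 to 2382. The library differences spanned -3.0 to 33 bp in width and -0.55 to 1.23 points at promoters.

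With the replicate number as a block, the differences were the same 15 bp, 0.34, -13.8 and 11.5 points, with exact sign-flip p of 1, 1, 0.5 and 0.5, where 0.5 is the smallest possible. The numbers did not pair the samples (r = -0.08 over 13785 gene windows). The shallower H3.3-HA libraries limit what absence of H3.3 means.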
